A study of Homo sapiens with 6 samples.

Results

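Protocadherins are cadherin-superfamily adhesion proteins of the cell surface, known above all from neurons. The clustered genes, named PCDHA, PCDHB and PCDHG, lie side by side on chromosome 5. A PCDHA or PCDHG gene joins its own first exon to constant exons that its whole cluster shares, whereas a PCDHB gene is coded by its own exon alone. In mouse neurons each cell uses a small set of clustered promoters, chosen with the help of CTCF, cohesin and DNA methylation, and the resulting proteins let branches of the same cell recognise each other. The non-clustered genes, such as PCDH7 or PCDH19, stand alone in the genome and act in adhesion and signalling in brain, endothelium and epithelia.

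Protocadherin mRNA was measured on 3 arrays of HEK293 Flp-In cells with constitutive expression of FLAG-HA-tagged TRIM71, and on 3 arrays of the wild-type parental HEK293 Flp-In line. HEK293 is an established human embryonic kidney line, Flp-In cells carry a recombination site for a transgene, and TRIM71 is an RNA-binding protein of stem and progenitor cells. Hygromycin B was given to the TRIM71 line and is not named for the parental line, so transgene, drug and line history cannot be told apart for any gene, and the labels do not say whether that line was 1 clone. Members were all probesets with any annotated symbol that starts PCDH, which gave 46 of 32321 probesets. PCDHA symbols were on 14 of them, PCDHB symbols on 18, a PCDHG symbol on 1, and symbols of non-clustered genes on 13.

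Values are the deposited log2 expression values, 1 per array, and a difference is the TRIM71 line minus the parental line on that log2 scale. The threshold for a call was 0.05 on the p-value of 1 limma fit, adjusted by the Benjamini-Hochberg method over all 32321 probesets, and "fell" or "rose" is used of called probesets only. The labels number the replicates 1 to 3 without naming separate cultures, so p-values here speak only to the spread among arrays, which may be technical.

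TRIM71 stood at 10.63, 10.86 and 10.72 in the TRIM71 line, against 7.23, 7.54 and 7.44 in the parental line (difference 3.33, SE 0.10, limma adjusted p = 6.8e-05). An exact two-sided permutation test gave p = 0.1, the lowest value open to 3 arrays against 3. Arrays of the same line correlated at 0.996 to 0.997 over all probesets (Pearson), and arrays of different lines at 0.991 to 0.994. Of the epithelial and kidney markers, KRT8 and KRT18 were bright in both lines. KRT8 stood at 11.17 ± 0.05 in the TRIM71 line and 11.39 ± 0.06 in the parental line. KRT18 stood at 10.20 ± 0.04 in the TRIM71 line and 10.25 ± 0.07 in the parental line (SD, n = 3 each). EPCAM, CDH1, LRP2 and PAX2, of the same list, lay above the median probeset mean of 6.94 in both lines. PAX8, CDH16, AQP1, AQP2 and NPHS1 lay below it. Of the neuronal markers, NEFL (10.96 in the TRIM71 line, 12.41 in the parental line) and INA (10.37 and 10.99) were as bright, whereas DCX (4.48 and 4.51) was dim. SNAP25 and SYP lay above the median probeset mean in both lines, and RBFOX3 only in the parental line. MAP2, SYT1, NEFM, STMN2 and ELAVL4 lay below it in both. The leukocyte marker PTPRC was dim (3.50 ± 0.002 in the TRIM71 line and 3.53 ± 0.16 in the parental line), whereas CD68, of the same list, lay above the median probeset mean of 6.94 (8.08 ± 0.04 in the TRIM71 line and 8.11 ± 0.04 in the parental line).

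Not every probeset stands for 1 gene. A probeset carried 15 PCDHA symbols, namely PCDHA1 to PCDHA13, PCDHAC1 and PCDHAC2. Another 2 probesets carried both PCDH11X and PCDH11Y, so none of these 3 was named for a gene. The other 43 carried 1 symbol each and stood for 42 genes, PCDHA2 having 2 probesets. All 13 PCDHA probesets with 1 symbol, and that of PCDHGB4, were annotated to only 1 transcript accession and may miss other transcripts of the gene. PCDHGB4 was the only PCDHG gene named by the annotation used, and the other PCDHG genes were not analysed here. PCDHB genes are close relatives, so signal from a neighbour's RNA on a PCDHB probeset cannot be told apart from its own. Most members were dim, with 39 of 46 below the median probeset mean of 6.94. How far the folds of such dim probesets are compressed by background signal was not tested.

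The promoters of the clustered genes are known to share an element around the letters CGCT that CTCF can bind. Promoter windows of 300 bases, 250 before the start and 50 after it, were taken from RefSeq (GRCh38.p14) and matched by symbol, and 9 of the 12 genes with a called probeset had one (not PCDH20, PCDHA3 or PCDHB18P). Words were searched on both strands. CGCT occurred in 12 of 13 PCDHA windows, 14 of 14 PCDHB windows and 25 of 25 PCDHG windows, but also in 70.0% of all 35116 windows. The 9-letter word present in most PCDHB genes was GGTGGCGCT, in 13 of 14 windows against 0.501% of all windows. The corresponding PCDHA word was GATGTCGCT, in 9 of 13 windows against 0.105% of all, and the PCDHG word was GCGCCGCTG, in 11 of 25 windows of 20 genes against 1.28% of all. These words, all of which contain CGCT, were chosen by counting letters in the windows and without the arrays, and no word of 1 cluster occurred in a window of another cluster. None of the 3 words was found in 10 windows of 9 non-clustered genes, among them PCDH18 and PCDH19.

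The stretches below, on the plus strand of chromosome 5, show that shared word in genes that fell and in PCDHB7 and PCDHB12, chosen after their values were seen as the PCDHB genes that differed least, with the cluster's word in capitals. For PCDHB2 (chr5:141094415-141094614) and PCDHB5 (chr5:141135006-141135205), the most changed clustered genes, the 200 bases before the start are given, and for the others 40 bases around the word.
PCDHB2: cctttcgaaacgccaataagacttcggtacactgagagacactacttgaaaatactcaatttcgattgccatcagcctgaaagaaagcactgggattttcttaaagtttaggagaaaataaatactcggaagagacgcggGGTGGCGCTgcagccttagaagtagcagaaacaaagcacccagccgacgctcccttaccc
PCDHB5: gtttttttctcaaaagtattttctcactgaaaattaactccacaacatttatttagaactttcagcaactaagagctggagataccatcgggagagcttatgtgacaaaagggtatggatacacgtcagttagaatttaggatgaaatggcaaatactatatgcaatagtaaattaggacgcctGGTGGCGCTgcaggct
PCDHB3: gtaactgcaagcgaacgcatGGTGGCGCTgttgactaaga
PCDHB15: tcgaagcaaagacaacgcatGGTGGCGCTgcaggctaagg
PCDHB16: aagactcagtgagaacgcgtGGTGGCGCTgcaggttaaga
PCDHB7: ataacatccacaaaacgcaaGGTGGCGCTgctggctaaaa
PCDHB12: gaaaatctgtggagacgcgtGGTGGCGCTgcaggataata
PCDHA10: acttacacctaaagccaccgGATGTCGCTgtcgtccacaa
PCDHGB4: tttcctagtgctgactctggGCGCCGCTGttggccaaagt
The 40-base stretches are chr5:141100384-141100423 for PCDHB3, chr5:141245305-141245344 for PCDHB15, chr5:141182301-141182340 for PCDHB16, chr5:141172557-141172596 for PCDHB7, chr5:141208634-141208673 for PCDHB12, chr5:140855832-140855871 for PCDHA10 and chr5:141387609-141387648 for PCDHGB4. PCDHGB4 has 2 annotated windows, and the other 1 lacks the word. In the 13 PCDHB windows that held it, the word began 2 to 84 bases before the annotated start. Of those 13 genes, 5 fell and 8 did not pass the test, so the word was present in both kinds, and a match is a description, not a binding site.

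Of 33 clustered probesets, 31 had a lower mean in the TRIM71 line, against 49.3% of all probesets and 53.9% of those with 1 symbol. Only 9 of the 33 fell (27.3%) and 24 did not pass. Of 13 non-clustered probesets, 6 had a lower mean and 7 a higher one. Of 46 protocadherin probesets, 10 fell (21.7%), 2 rose and 34 did not pass, where 8.28% of all probesets fell and 7.95% rose (16.2% called in either direction). Among all probesets below the median mean, where most members lie, 3.14% fell, and among probesets with 1 symbol 12.1% fell and 9.93% rose (22.0% in either direction). All 3 TRIM71 arrays lay below all 3 parental arrays for 13 members and above them for 3, against 17.4% and 17.9% of all probesets. In these bulk arrays, fewer cells that make an mRNA and less of it per cell cannot be told apart. The median difference was −0.11 over the 46 members and 0.00 over all probesets. Calls of 4 genes (PCDHB2, PCDHB5, PCDH19 and PCDH20) held under every alternative processing in which the probeset was tested. 1 alternative tested only probesets at or above the median mean, and another only those with a mean of at least 5. PCDHB2 passed the first of these filters and PCDHB5 the second only through their higher parental values, so these settings are no support for their falls. Calls of the other 8 genes each ended when some arrays were left out, as given beside them. The calls of PCDH18, PCDHB16, PCDHA3 and PCDHGB4 also ended when replicate number was added to the model (the replicate block).

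**Figure D1:**
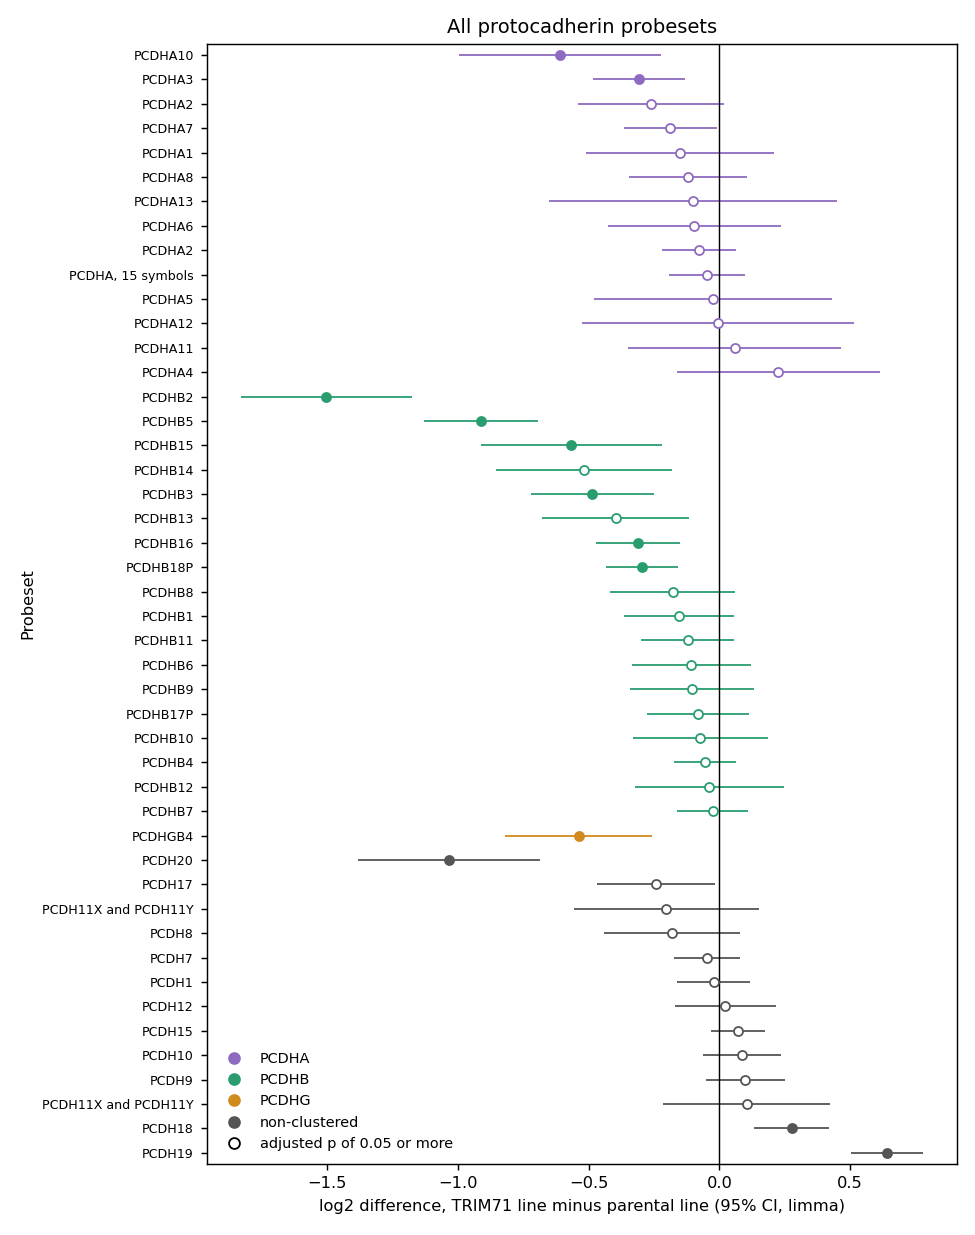
Difference in log2 expression, TRIM71 line minus parental line, for each of the 46 protocadherin probesets, with 95% confidence intervals from limma (n = 3 arrays per line); filled points are called, open points are not. All 18 PCDHB points lie left of 0, and PCDHB2 (−1.50) and PCDH19 (0.64) mark the ends.

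The PCDHB genes, which lack constant exons, included the most negative differences of the clustered set, those of PCDHB2 and PCDHB5. All 18 PCDHB probesets had a mean below that of the parental line, where 49.3% of all probesets did, and their median difference was −0.17. The test was passed by 6 of 18 (33.3%), all lower, and 12 did not pass. Of all probesets 8.28% fell, and of those with 1 symbol 12.1%. The groups did not overlap for 8 of the 18, also all lower, where 17.4% of all probesets were lower without overlap.

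PCDHB2 read 6.41, 6.31 and 5.92 in the TRIM71 line, against 7.60, 7.73 and 7.82 in the parental line. Every TRIM71 array was more than 1 log2 unit below every parental array, and PCDHB2 was the only PCDHB probeset whose mean lay above the median of all probesets (6.97 against 6.94 over the 6 arrays). The difference was −1.50 (SE 0.14, limma adjusted p = 0.0013), or 2.84-fold lower. PCDHB5 read 4.81, 4.55 and 4.73 in the TRIM71 line, against 5.73, 5.50 and 5.60 in the parental line. Its arrays were likewise well apart, by −0.91 (SE 0.09, limma adjusted p = 0.0018), or 1.88-fold lower.

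The other 4 falls in the PCDHB cluster were smaller and rested on closer values. PCDHB15 had 4.23, 4.09 and 4.11 in the TRIM71 line, against 5.05, 4.56 and 4.52 in the parental line (−0.57, limma adjusted p = 0.043). Parental replicate 1 stood well above the other parental arrays. The PCDHB15 call ended without any 1 TRIM71 array or parental replicate 2 or 3 (limma adjusted p between 0.051 and 0.124), and also with quantile normalization or median centring (0.051 each). PCDHB3 had 4.52, 4.45 and 4.33 in the TRIM71 line, against 5.01, 5.03 and 4.72 in the parental line (−0.49, limma adjusted p = 0.020), and its call ended without TRIM71 replicate 2 or 3 or parental replicate 1 or 2 (0.057 to 0.071).

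PCDHB16 had 4.75, 4.64 and 4.85 in the TRIM71 line, against 5.0, 5.09 and 5.08 in the parental line (−0.31, limma adjusted p = 0.024). The transcribed pseudogene PCDHB18P had 4.93, 4.99 and 5.07, against 5.24, 5.31 and 5.34 in the parental line (−0.30, limma adjusted p = 0.017). In both, the groups stood apart by less than 0.4 log2 units at the means. Both calls ended without TRIM71 replicate 1 or 2 or parental replicate 2 or 3 (limma adjusted p between 0.061 and 0.088).

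Of the 12 PCDHB probesets that were not called, PCDHB13 and PCDHB14, named here after their values were seen, came closest. PCDHB14 had 4.80, 4.82 and 4.56 in the TRIM71 line, against 4.96, 5.30 and 5.47 in the parental line (−0.52, 95% confidence interval −0.86 to −0.18, limma adjusted p = 0.053). PCDHB13 had 4.13, 4.21 and 4.52, against 4.61, 4.82 and 4.62 in the parental line (−0.40, interval −0.68 to −0.12, limma adjusted p = 0.068). Their groups did not overlap. The remaining 10 differed by −0.18 (PCDHB8) to −0.03 (PCDHB7), with means over the arrays of 3.44 to 4.70.

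**Figure D2:**
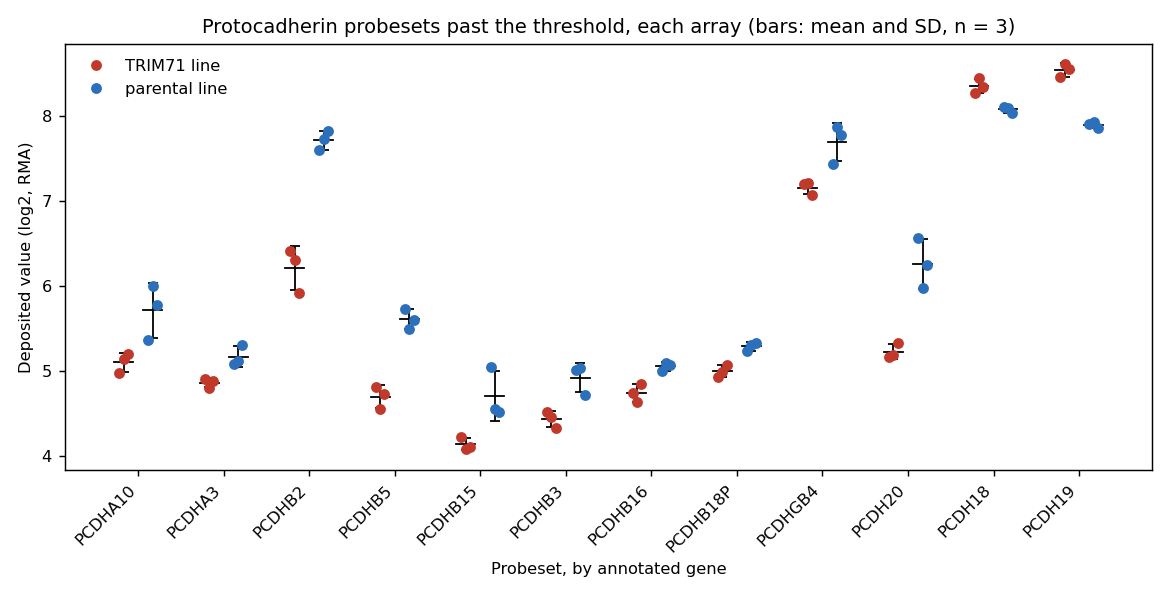
Deposited log2 expression on each array for the 12 called protocadherin probesets, the 3 TRIM71 arrays left of the 3 parental arrays of the same probeset, with mean and SD. No gene's groups overlap, and PCDH18 and PCDH19 are the genes in which the TRIM71 arrays lie above the parental ones.

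In the PCDHA cluster, 2 of 14 probesets fell (14.3%), 0 rose and 12 did not pass, with a median difference of −0.10. That share is near the 12.1% that fell among all probesets with 1 symbol (8.28% of all probesets). However, 13 of the 14 lay below the median probeset mean, where 3.14% of all probesets fell. PCDHA10 read 4.98, 5.14 and 5.20 in the TRIM71 line, against 5.37, 6.01 and 5.78 in the parental line (−0.61, SE 0.16, limma adjusted p = 0.048). The groups were 0.17 apart at their nearest arrays, and the call ended when any array but parental replicate 1 was left out (0.081 to 0.148). PCDHA3 read 4.91, 4.80 and 4.88, against 5.08, 5.12 and 5.31 in the parental line (−0.31, SE 0.07, limma adjusted p = 0.035), and its call ended without the same 5 arrays (0.065 to 0.109). PCDHA8, the brightest PCDHA probeset, had 6.93, 6.85 and 7.13, against 6.97, 7.10 and 7.20 in the parental line, with overlapping groups (−0.12, limma adjusted p = 0.47).

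The probeset that carries 15 PCDHA symbols read 5.94, 5.89 and 5.98 in the TRIM71 line, against 5.89, 6.07 and 5.98 in the parental line. Its groups overlapped and its difference was −0.05 (interval −0.19 to 0.10, limma adjusted p = 0.68). The single-transcript probesets that were not called ran from −0.26 (PCDHA2, at 1 of its 2 probesets) to 0.23 (PCDHA4), and the widest interval among them, that of PCDHA13, was −0.65 to 0.45. The other PCDHA2 probeset differed by −0.08.

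PCDHGB4 stood for the PCDHG cluster alone. It read 7.20, 7.21 and 7.07 in the TRIM71 line, against 7.44, 7.87 and 7.78 in the parental line, with no overlap. The gene fell by 0.54 on the log2 scale (SE 0.12, limma adjusted p = 0.026). That call ended without any 1 TRIM71 array or without parental replicate 2 or 3 (limma adjusted p between 0.067 and 0.082).

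Set in RefSeq order along chromosome 5, called genes lay among uncalled ones within the PCDHB cluster. PCDHB2, PCDHB3 and PCDHB5 lie near its start, with the uncalled PCDHB4 between PCDHB3 and PCDHB5 (−0.05). PCDHB16 lies further along, between the uncalled PCDHB8 and PCDHB9, and PCDHB18P and PCDHB15 lie at its end. Of 16 listed genes that neighbour the clusters, 2 fell, 0 rose and 14 did not pass (median −0.02), where 12.2% of 18404 genes fell and 10.0% rose when each is taken by its brightest 1-symbol probeset. The share of listed neighbours that fell was thus near that of all genes. SLC25A2 and TAF7, the 2 that fell, lie between PCDHB15 and the PCDHG genes. SLC25A2, a mitochondrial ornithine carrier, read 5.86, 5.68 and 5.88 in the TRIM71 line, against 6.19, 6.24 and 6.33 in the parental line (−0.44, limma adjusted p = 0.0095). TAF7, a subunit of the general transcription factor TFIID, had 8.19, 8.34 and 8.24, against 8.58, 8.55 and 8.48 in the parental line (−0.28, limma adjusted p = 0.023). The call of SLC25A2 held under each alternative that tested it, and that of TAF7 ended without TRIM71 replicate 1 or 3 or parental replicate 1 or 2 (at most 0.083) and with median centring (0.050). Genes outside the clusters on either side, such as ZMAT2 (0.16) and HARS2 (−0.01) before PCDHA1 and DIAPH1 (0.05) after the PCDHG genes, did not pass. Neither did the first listed gene, TMCO6 (−0.15, interval −0.27 to −0.03, limma adjusted p = 0.10), or the last, ARAP3 (−0.31, interval −0.53 to −0.09, limma adjusted p = 0.068). The groups of TMCO6 and of ARAP3 did not overlap. All these examples were chosen after their values were seen.

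**Figure D3:**
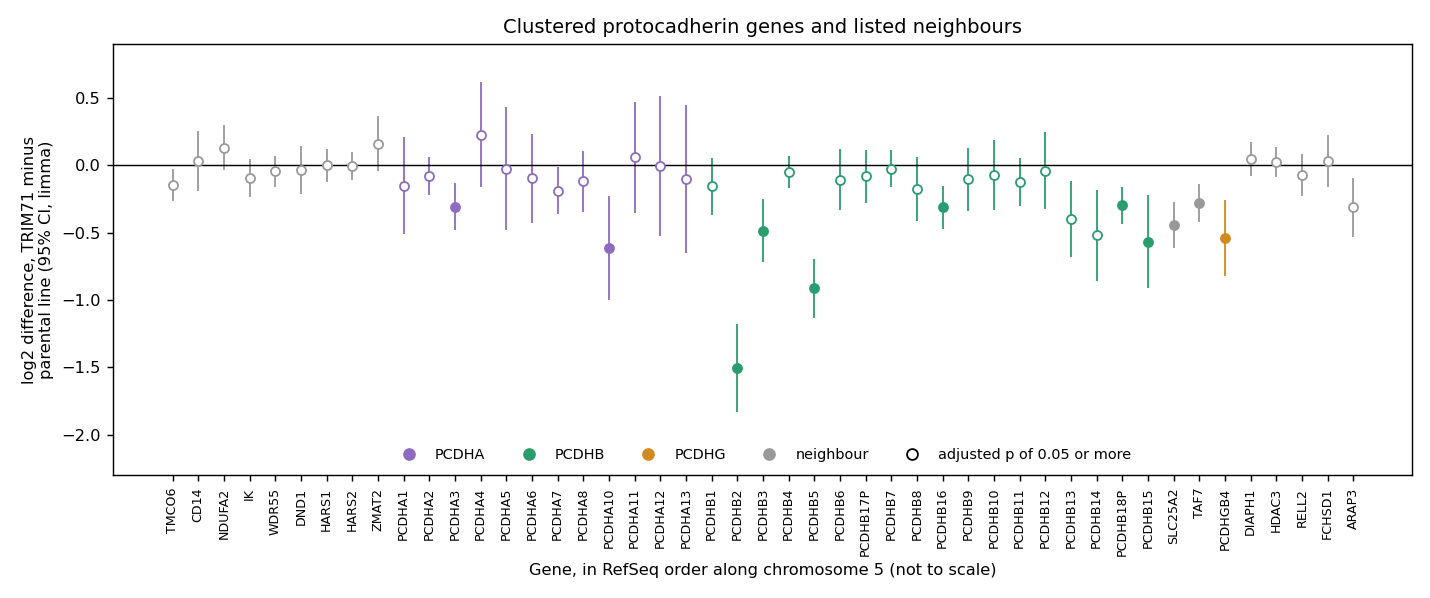
Difference in log2 expression, TRIM71 line minus parental line, with 95% confidence intervals from limma (n = 3 arrays per line), for clustered protocadherin genes and listed neighbours in RefSeq gene order, by the brightest probeset of each gene. Called genes (filled) run from PCDHA3 to PCDHGB4, SLC25A2 and TAF7 included, and none of the neighbours outside that stretch is filled.

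The non-clustered genes had a median difference of 0.02, with 1 of 13 probesets fallen (7.69%), 2 risen and 10 not passing. Of all probesets, 8.28% fell and 7.95% rose. PCDH20, a chromosome 13 gene reported as silenced by promoter methylation in several cancers, read 5.16, 5.19 and 5.33 in the TRIM71 line, against 6.56, 5.98 and 6.25 in the parental line. The highest TRIM71 array was 0.65 below the lowest parental array. The fall was −1.03 (SE 0.14, limma adjusted p = 0.0058), or 2.05-fold. The other 3 non-clustered genes of chromosome 13 did not pass. PCDH17, which acts at presynaptic sites in mouse brain, had 5.43, 5.35 and 5.65, against 5.61, 5.75 and 5.81 in the parental line (−0.24, limma adjusted p = 0.14). PCDH8, also called arcadlin and induced by neuronal activity in rat, differed by −0.18 (limma adjusted p = 0.34) and PCDH9 by 0.10 (0.37), both with overlapping groups.

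PCDH19, an X-linked protocadherin whose loss causes an epilepsy and which pairs with N-cadherin in zebrafish, was the clearest rise. It read 8.46, 8.62 and 8.56 in the TRIM71 line, against 7.90, 7.94 and 7.86 in the parental line. The groups were separated by 0.52 and each was tight, for a difference of 0.64 (SE 0.06, limma adjusted p = 0.0013), or 1.56-fold. N-cadherin itself, CDH2, stood at 11.47 ± 0.01 in the TRIM71 line and 11.05 ± 0.04 in the parental line (SD, n = 3 each; 0.42, limma adjusted p = 0.0027). PCDH18, which binds the adaptor DAB1 in mouse, read 8.28, 8.45 and 8.35, against 8.11, 8.09 and 8.04 in the parental line. It rose by less (0.28, limma adjusted p = 0.025), and the call ended when any array but TRIM71 replicate 1 was left out (0.052 to 0.080) and with median centring (0.055).

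PCDH18 lies on chromosome 4 with PCDH7 and PCDH10, which did not pass. PCDH7, an inhibitor of the phosphatase PP1, had 9.10, 9.12 and 9.11 in the TRIM71 line, against 9.15, 9.09 and 9.23 in the parental line, with overlapping groups and an interval of −0.17 to 0.08 around −0.05. PCDH10, which recruits the WAVE actin regulator through NCKAP1 in mouse, had 7.23, 7.25 and 7.39, against 7.17, 7.26 and 7.17 in the parental line (0.09, interval −0.06 to 0.24, limma adjusted p = 0.43). PCDH1, a protocadherin of airway epithelium, and PCDH12, an endothelial one, lie beyond the clusters on chromosome 5 and differed by −0.02 and 0.02. The sign of either changed under some alternatives.

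PCDH15 forms the tip links of inner ear hair cells with CDH23. Its arrays did not overlap, at 3.77, 3.76 and 3.80 in the TRIM71 line against 3.70, 3.72 and 3.70 in the parental line, but the difference of 0.07 did not pass (limma adjusted p = 0.34) and the probeset was among the dim ones. CDH23, picked as its partner after the values were seen, was lower at 6.02 ± 0.20 in the TRIM71 line and 6.67 ± 0.14 in the parental line (SD, n = 3 each; −0.64, limma adjusted p = 0.015), with a call that ended without TRIM71 replicate 1 or 2 or parental replicate 2 or 3 (at most 0.058). The 2 probesets shared by PCDH11X and PCDH11Y differed by 0.10 and −0.20 (limma adjusted p = 0.68 and 0.43).

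Factors known to act on protocadherins were set beside them. Of 17 factors of promoter choice and looping, 5 rose, 2 fell and 10 did not pass (median 0.00). Of all 18404 genes, 10.0% rose and 12.2% fell, and the same shares apply to each list below. These factors and the shedding genes below all lay above the median probeset mean of 6.94, where calls were more frequent. When only probesets at or above that mean were tested, 3178 of 16161 rose and 3119 fell. DNMT3B, the methyltransferase that marks clustered promoters in mouse embryos, stood at 9.13 ± 0.02 in the TRIM71 line and 8.71 ± 0.06 in the parental line (0.41, limma adjusted p = 0.0035). The cohesin loader NIPBL rose (0.35, 0.0045), while its partner MAU2 (−0.22, 0.039) and the cohesin regulator PDS5A (−0.21, 0.021) fell with calls that ended without any 1 TRIM71 array, among others. CTCF differed by 0.13 without passing (limma adjusted p = 0.15).

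Of 7 measured shedding and gamma-secretase genes (8 listed), 4 rose, 0 fell and 3 did not pass (median 0.24; 10.0% of all genes rose). The sheddase ADAM10, which cleaves PCDHG proteins, rose by 0.46 (limma adjusted p = 0.0014) and ADAM17 by 0.29 (0.013), the ADAM17 call ending without parental replicate 2 (0.057). Of 13 measured cytoplasmic partners (16 listed), 2 rose, 0 fell and 11 did not pass (median 0.10). These were TAOK2, a kinase that PCDH8 engages in rat (0.29, limma adjusted p = 0.015), and the PCDH10 partner NCKAP1 (0.25, 0.020). TAOK2 lost its call without TRIM71 replicate 2 (0.056), and NCKAP1 without TRIM71 replicate 1 or 2 or parental replicate 2 or 3 (at most 0.077) and with median centring (0.059).

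Among 40 measured cadherin-superfamily genes outside the protocadherins (42 listed), 3 rose, 4 fell and 33 did not pass, with a median of 0.01. The P-cadherin gene CDH3 (−2.10, limma adjusted p = 2.8e-04) and the E-cadherin gene CDH1 (−1.66, 1.3e-04) fell, and the desmocollin DSC2 rose (0.62, 7.9e-04). Of 11 measured neuronal markers (12 listed), 5 fell, 0 rose and 6 did not pass (median −0.32; 12.2% of all genes fell and 10.0% rose), led by NEFL (−1.45) and MAP2 (−1.21). Summed on the linear scale, this list ranged from 3892 to 4066 in the TRIM71 line and from 8180 to 8574 in the parental line. NEFL made up 1924 to 2052 of this in the TRIM71 line and 5294 to 5559 in the parental line, and without it the sums were 1968 to 2020 in the TRIM71 line and 2885 to 3016 in the parental line. The part of the list in the protocadherin differences was not tested. The epithelial and kidney list had 1 of 11 risen (LRP2, 1.40) and 3 fallen, with CDH1 and EPCAM (−1.47) the most negative, and summed to 6028 to 6380 in the TRIM71 line and 7464 to 7639 in the parental line. The third fallen member, KRT8 (−0.22, limma adjusted p = 0.038), lost its call when any 1 array was left out (at most 0.124) and with median centring. The leukocyte, endothelial and fibroblast list had 1 of 11 risen (KDR, 1.44) and 0 fallen, with sums of 782 to 830 in the TRIM71 line and 758 to 795 in the parental line. The part of either list in the protocadherin differences was not tested.

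**Figure D4:**
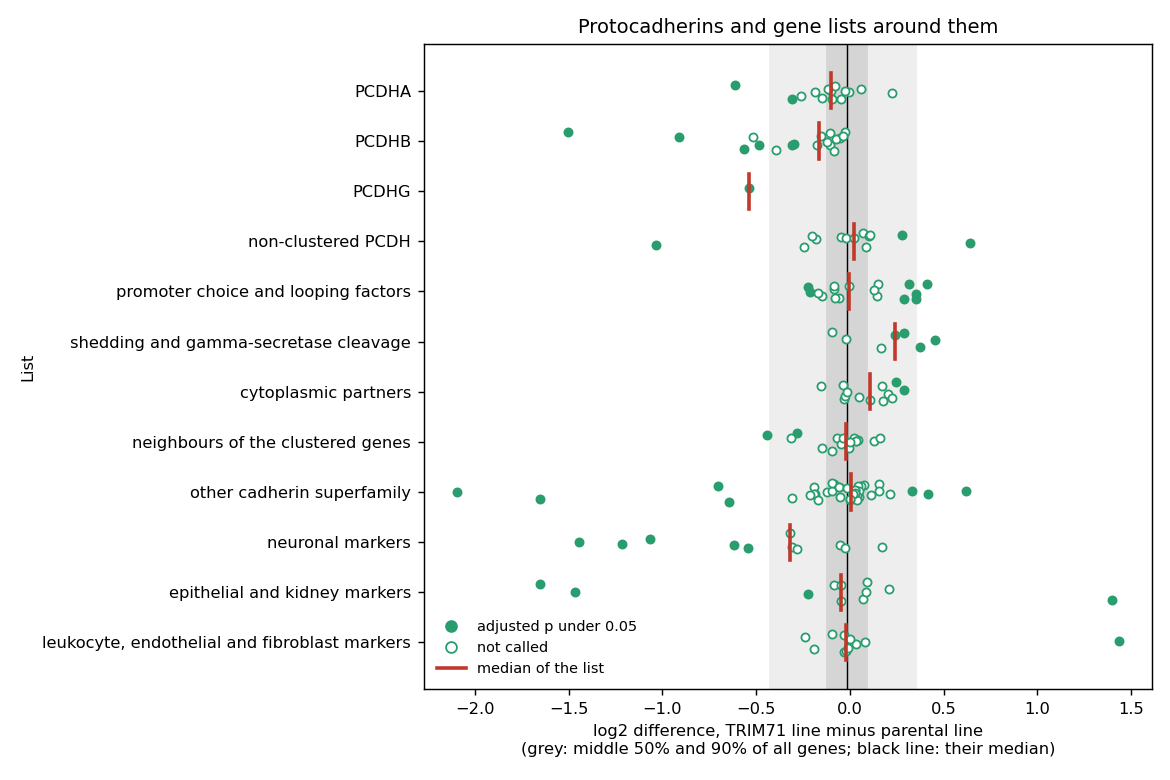
Difference in log2 expression, TRIM71 line minus parental line, for the protocadherin classes and 8 gene lists; each point is a probeset (lists: the brightest probeset of a gene), filled where called, and red bars are list medians. Grey bands hold the middle 50% and 90% of 18404 genes; the PCDHB (−0.17), PCDHG (−0.54, 1 probeset) and neuronal (−0.32) medians lie left of the inner band, and the shedding (0.24) and cytoplasmic partner (0.10) medians right of it.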

How the data were processed

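Total RNA from 3 TRIM71 and 3 parental samples was amplified, labelled with biotin and hybridised to Affymetrix arrays, per the labels' protocols. The authors deposited log2 expression values, 1 column per array, made with RMA and affy, per the submitters' processing notes; the sources used here give neither versions nor a build. Array medians were 6.90 to 6.97, and 3 arrays per group limit the precision.

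Genes were named from the platform annotation (19158 of 32321 probesets with 1 symbol, 1388 with several, 11775 with none); chromosomes, gene order and promoter sequences came from RefSeq (GRCh38.p14), where all 43 1-symbol members matched. A linear model on group was fitted in limma 3.58.1 (R 4.3.3) to every probeset, with lmFit and eBayes and no trend or filter, and tested on simulated data. Lists take the brightest 1-symbol probeset per gene. Named were all called 1-symbol members, all non-clustered genes, the brightest and most changed of each cluster, and up to 2 called list members per direction; others, named as ends of a range, partners or by position, were picked after their values were seen. Members and lists were chosen with earlier results of these data known. Alternatives were a trend with robust estimation, 2 normalizations, 2 filters, 1-symbol probesets, a replicate block, array weights and each array left out.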

Additional observations from a re-analysis of the deposited data

How the results depend on the processing

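PCDHB2, PCDHB5, PCDH19 and PCDH20 kept their calls under all 13 or 14 alternatives that tested them; with 3 arrays per line, the other 8 calls did not, and the cause was not tested. With the replicate block, 1512 probesets rose and 1615 fell in all (2571 and 2677 without it), 7 protocadherins fell and 1 rose. Of the list genes named above, ADAM17, TAF7, NCKAP1, PDS5A, MAU2 and KRT8 also lost their calls with it. Deviations of same-numbered arrays from their group means correlated at 0.07, −0.19 and 0.11. Those of differently numbered arrays ran from −0.28 to 0.24. With 3 arrays per line, these values cannot decide whether the numbers pair the arrays. Leaving out 1 array gave 1320 to 2077 risen and 1566 to 2026 fallen probesets, 3 to 10 fallen and 1 to 2 risen protocadherins, and 2 to 6 fallen PCDHB probesets. The fewest fallen protocadherins, 3, came without TRIM71 replicate 2 or without parental replicate 2; 4 came without TRIM71 replicate 1 or without parental replicate 3, and 6 without TRIM71 replicate 3. Median centring left 1 risen protocadherin. Filters test fewer members, by the mean over all 6 arrays. At the median probeset mean or above, 2 protocadherins of 7 fell, PCDHB2 as 1 PCDHB probeset of 1. At a mean of at least 5, 3 PCDHB probesets of 3 fell. PCDHB2 passed the first filter, and PCDHB5 and PCDHB18P the second, only through their higher parental values. These 2 PCDHB shares, and the calls that these genes kept under those filters, were thus shaped by the filter and are no support for the falls. PCDHB14 passed in 6 alternatives, PCDHB13 in 3. Leaving out 1 array moved PCDH1 between −0.055 and 0.021 (above 0 without parental replicate 2) and PCDH12 between −0.030 and 0.093 (below 0 without TRIM71 replicate 1 or parental replicate 1); quantile normalization gave −0.0013 for PCDH12.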
